A study of Mus musculus with 3 samples.

Results

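The region of mouse chromosome 15 from 59.06 to 59.14 Mb (mm9, NCBI mouse build 37) gave 18750 of the 2219118 distinct small RNA sequences in the deposited list, which is 0.845% of the list (exact Clopper-Pearson 95% interval 0.833 to 0.857%). A sequence was taken as a member when its listed start fell between these limits. The region had been chosen by its number of listed sequences and their share on each strand in this same list, so its density and its strand balance are given as a description without a test. The small RNAs came from immunoprecipitates of C57BL/6 mouse testis, made into 3 libraries with 1 library per group. One group was Tdrd1 from adult testis, whose genotype the label does not name. In both others Mili was precipitated, from the testis of adult wild-type mice in one and of Tdrd1-knockout mice at 15 days after birth in the other. Genotype and age cannot be told apart in the knockout library, and the list pools all libraries without read numbers, so no group could be set against another. All values below count each distinct sequence once.

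PIWI-interacting RNAs (piRNAs) are small RNAs of the animal germ line that are bound by Piwi proteins such as Mili, and Tdrd1, which carries Tudor domains, binds Mili in germ cells. In meiotic spermatocytes most piRNAs are cut from long single-stranded transcripts of a limited number of genomic clusters, and a pair of such transcripts can start from a shared divergent promoter and run in opposite directions. The transcription factor A-MYB is known to drive many of these promoters. Primary piRNAs mostly start with U. In the ping-pong cycle, a Piwi protein guided by a piRNA cuts a complementary transcript opposite guide bases 10 and 11, so that guide and product overlap by 10 nt and the product of a U-first guide has A at position 10.

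The sequences of the chromosome 15 region were arranged as a pair of divergent arms. The positions at which most distinct sequences began are shown first, 5 for the minus arm and 4 for the plus arm, because these 5′ ends were listed with the largest number of different 3′ ends. Each is given by its longest member of at most 30 nt, 5′ to 3′, with T standing for U, and the capitals mark bases 1 and 10.
minus 1, chr15:59101522-59101551: TagaacttgCagaacatgggctatccccat
minus 2, chr15:59084449-59084478: TgtaaaatgTagagtagaagccgtgtatag
minus 3, chr15:59106509-59106538: TgtgatgaaCtgggaagaaactttggtgcc
minus 4, chr15:59086910-59086939: TgtgaagatAgacaatctgcatatatttca
minus 5, chr15:59088849-59088878: TggtagaaaAggctggaatattcaaagaat
plus 1, chr15:59107219-59107248: TgatgaaggAttttagaaggatactataga
plus 2, chr15:59108313-59108342: TgaactcagAagataaagtgcccttcagga
plus 3, chr15:59107222-59107251: TgaaggattTtagaaggatactatagaaac
plus 4, chr15:59108302-59108331: TgacaccagAatgaactcagaagataaagt
Each of these 5′ ends began with U, whereas A stood at position 10 in 5 of them. The 5′ end minus 1 was listed with 12 different 3′ ends, in sequences from 21 to 32 nt. The 5′ ends minus 2, minus 3, plus 1 and plus 2 had 11 each and minus 4, minus 5, plus 3 and plus 4 had 10 each. Some of the ends were close neighbours: plus 1 and plus 3 lay 300 and 303 nt from the point where the arms meet, and the printed sequences of plus 2 and plus 4 overlap as well.

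Members were concentrated in a body of 52 kb from 59079001 to 59131000, the run of 1-kb bins with at least 50 members each, which held 18505 of them (98.7%). Counted in 20-kb windows from the lower limit, the region had 210, 9029, 8131 and 1380 members. The middle windows ranked 12 and 17 among the richest of the whole list. The body was covered by listed sequences over 38170 bases (73.4%). The 395 uncovered stretches were short, the longest being 329 nt from 59125324 and the next 242 nt. Whether these stretches are repeats was not tested, since no genome sequence was used here. The lower limit lay in almost empty sequence, with 21 members in the 5 kb inside it and 3 listed sequences in the 5 kb outside. At the upper limit the edge was less clear, with 101 members in the 5 kb inside and 43 sequences in the 5 kb outside, of which 74 and 31 were on the plus strand.

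The strand of 18545 members could be read from the letters they share with overlapping neighbours. Among overlapping members called on the same strand 0 bases disagreed, and members of opposite strands were not compared in this way. Of the 18545, 13352 were on the minus strand and 5193 on the plus strand, a plus share of 28.0% (27.4 to 28.7%). In the single window from 59.1 to 59.12 Mb, which holds the point where the arms meet, the share was 48.1%. The position that best divided minus from plus was 59106919. To its left 13309 of 13328 sequences were minus (99.9%, 99.8 to 99.9%), and to its right 5174 of 5217 were plus (99.2%, 98.9 to 99.4%). The region thus had 1 strand on each side, with the arms pointing away from each other, and not both strands throughout. Only 62 sequences ran against the arm they lay in, 19 on the left and 43 on the right.

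**Figure D1:**
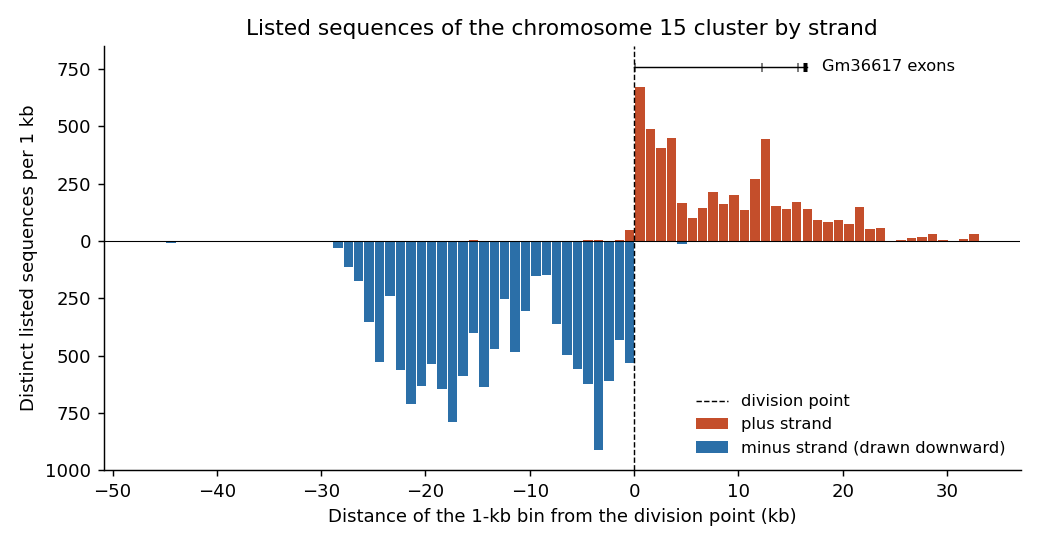
Distinct listed sequences per 1-kb bin of the region, with the plus strand drawn upward and the minus strand downward, against the distance of the bin from the division point in kb. The line above marks the exons of the noncoding gene Gm36617. Minus sequences fill the left side and plus sequences the right, and the richest bin holds 916 members.

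The minus arm, from 59079001 to the division point, was the richer one. It held 13253 members over 27.9 kb, or 475 per kb, against 5066 over 24.1 kb, or 210 per kb, in the plus arm. The listed sequences covered 84.8% of the minus arm and 59.7% of the plus arm. Over the whole region the minus side had 2.57 times as many sequences as the plus side. The arms also differed in shape. The median member of the plus arm began 7.33 kb from the division point and that of the minus arm 14.5 kb. In the plus arm 43.6% of members lay within the first 5 kb, and in the minus arm 23.8%. In consecutive blocks of 5 kb, the plus arm had 441, 165, 227 and 115 members per kb going outward, and 79.4 per kb in its last 4.08 kb. The minus arm did not thin out in this way over its first 25 kb, with 631, 336, 435, 604 and 535 per kb, and had 188 per kb in its last 2.92 kb. Of the 5 richest 1-kb bins, 4 lay in the minus arm: 59103001 to 59104000 with 916 members, 59089001 to 59090000 with 790, 59085001 to 59086000 with 712 and 59088001 to 59089000 with 644. The other was the bin from 59107001 to 59108000, directly right of the division point, with 672. All 5 were almost wholly of 1 strand: the richest had 912 minus and 3 plus sequences.

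The arms began next to each other. The nearest members that run with their arm are printed for each side because their first bases mark the inner ends of the arms, with base 1 in capitals.
minus arm, chr15:59106872-59106897: Tggaaagaattgtaagaaccagttgc
plus arm, chr15:59106919-59106944: Tctattccacaagaccatctagacaa
Their 5′ ends were 59106897 and 59106919, with 21 nt between them. This distance leaves out sequences that ran against their arm. A plus-strand 5′ end with 1 sequence lay at -38 from the division point, left of the last minus end at -22. The minus end was listed with 1 sequence and the plus end with 2. Both sequences start with U. They show where small RNAs were listed and not where transcription starts, which these data do not measure.

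**Figure D2:**
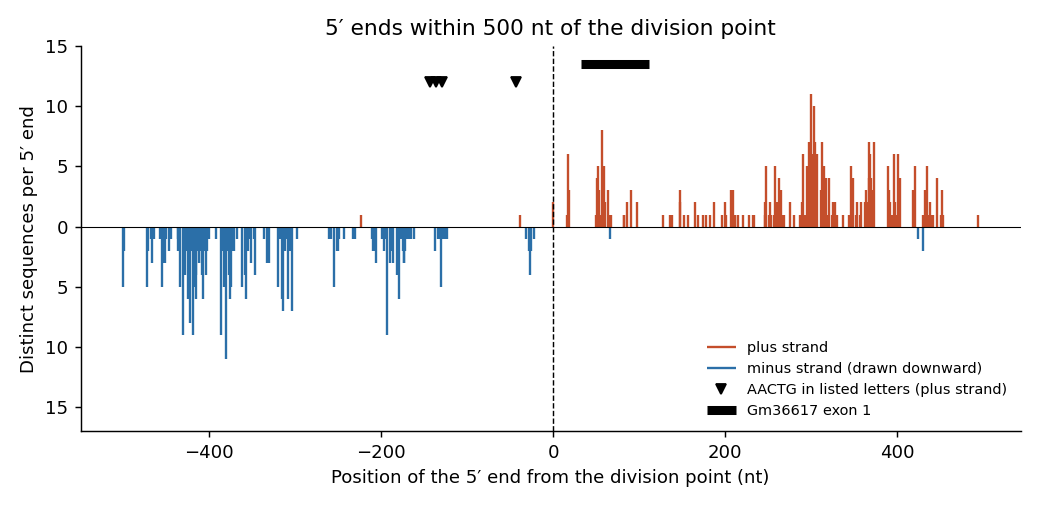
Number of distinct sequences at each 5′ end within 500 nt of the division point, plus upward and minus downward, with triangles at the 4 matches to AACTG and a bar at exon 1 of Gm36617. The highest peaks on either side are the ends minus 3 and plus 1, with 11 sequences each.

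Because A-MYB is known at divergent piRNA promoters, the letters around the division point were searched on both strands for AACTG, a core of MYB binding sites. The motif was chosen after these letters had been seen. The window ran from 59106669 to 59106968, 250 nt before the division point to 50 nt from it, and 223 of its 300 bases could be read from listed sequences. It held 4 matches, all on the plus strand, at positions -145, -138, -131 and -45 from the division point, the first 3 of them spaced 7 nt apart. The stretch with these 3, plus strand, matches in capitals, is shown with a minus-strand member that spans them, where the same matches read CAGTT.
chr15:59106669-59106795: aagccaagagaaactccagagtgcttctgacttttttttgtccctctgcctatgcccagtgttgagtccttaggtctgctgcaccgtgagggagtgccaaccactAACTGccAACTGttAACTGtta
minus member, chr15:59106768-59106794: aaCAGTTaaCAGTTggCAGTTagtggt
Of 32851 RefSeq mouse promoter windows of the same length (GRCm38.p6), 44.8% held at least 1 match and 0.654% held 4 or more. Of 97 other windows of 300 nt in the body with at least as many readable bases, 50 (51.5%) held at least 1 and 1 held as many. Since the motif was chosen after these letters were seen, the shares are a description and no test of rarity. A match is a description of the letters and not a site of binding, which was not measured.

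Annotated exons held few of the members. Searched by sequence against the GENCODE vM21 transcripts of build GRCm38, 139 members (0.741%, 0.624 to 0.875%) matched a spliced transcript over their whole length. The same share was not counted over the whole list, so it is a description of the region only. Of these, 137 were sense to Gm36617 (ENSMUSG00000115118.1), a long intergenic noncoding RNA gene, 1 was antisense to it and 1 was antisense to Gm7691, a processed pseudogene. The 4 exons of Gm36617 could be placed on the list by their sequence. Exon 1 ran from 59106951 to 59107030, beginning 32 nt right of the division point, and the last exon ended at 59123501. The gene therefore lay along the plus arm, and its span of 16551 nt held 4432 plus-strand members, 85.7% of the plus side. Of them, 4251 (95.9%) lay wholly in introns, 181 touched an exon and 129 lay wholly in exons. Exons are 4.07% of the span. The share that touched an exon was close to this, and the share wholly in exons was lower. Another 729 plus-strand members began beyond the last exon. Density was 191 plus-strand members per kb in exons and 268 per kb in introns, counting those wholly inside, which lowers the value of short exons. By exon, over the sense matches, it was 450 per kb in exon 1, 61.7 in exon 2, 27.2 in exon 3 and 232 in exon 4. Exons 2 and 3 held only 5 and 4 members. Of the 137 sense matches, 7 ran across an exon junction of the spliced transcript. Their listed interval has no gap and is as long as the sequence, so these matches do not show splicing. The promoter window that RefSeq gives for Gm36617 belongs to another start: 7 members shared 20 nt with it, all minus, between 59077510 and 59077589, which is 29.3 kb left of the division point.

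Lengths were nearly the same in both arms, which from here on include the members outside the body on the same side and strand. The mean was 26.4 ± 1.81 nt (SD over 13309 sequences) in the minus arm and 26.4 ± 1.77 nt (SD over 5174) in the plus arm, with 27 nt the most common length in each. The rest of the list was longer, at 27.1 ± 1.69 nt (SD over 2200368), although the gel used for all libraries was cut at about 28 to 30 nt. Sequences of 29 to 32 nt made up 9.59% of the region (9.17 to 10%) and 20% of the rest. Those under 24 nt made up 5.83% (5.50 to 6.17%) and 1.86%. Both shares lay within those of the 98 other windows among the 100 richest of the list, which had 7.71 to 28.1% of 29 to 32 nt with a median of 10%, and 0.569 to 10.2% under 24 nt with a median of 5.29%. The short length was thus shared with other rich windows. Of the members under 24 nt with a strand, 972 of 1089 (89.3%) began at the 5′ end of a member of 24 to 28 nt, and 766 (70.3%) stopped at the 3′ end of one. In the other rich windows these shares were 88.7% and 71.3%.

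U was the first base of 59.4% of members of 24 to 32 nt (58.7 to 60.1%, n = 17657), followed by A at 18.4%, C at 11.4% and G at 10.8%, and U stood at position 2 in 19.3%. The share of U at position 1 was 58.7% in the minus arm (57.8 to 59.6%) and 60.9% in the plus arm (59.5 to 62.3%), intervals that overlap narrowly. In the rest of the list it was 68.8% (68.7 to 68.9%), and in the other rich windows it ran from 24 to 77.4% with a median of 61.4%. Within the plus arm the share was higher farther out, from 57.7% in the first 5 kb to 68.8% in the last block, from 20 to 24.1 kb (63.3 to 74.0%). The minus arm had no such order: its lowest share, 53.3% (51.3 to 55.2%), lay between 20 and 25 kb and its highest, 64.8% (60.5 to 68.9%), directly beyond, from 25 to 27.9 kb. The intervals cover counting error only, and sequences of 1 transcript are not independent.

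**Figure D3:**
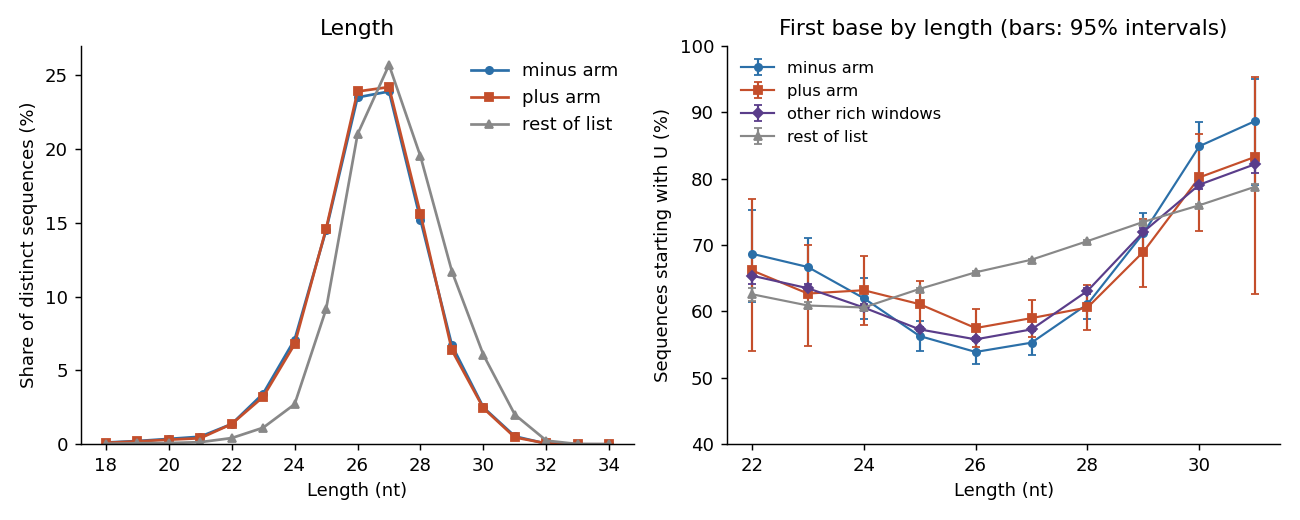
Left, share of distinct sequences at each length in nt for both arms and the rest of the list; right, share starting with U at each length, with 95% intervals, also for the other rich windows. The arms peak at 26 and 27 nt, and their share of U is lowest at 26 nt (53.9 and 57.5%) and above 80% at 30 nt.

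First base and length were linked. In the region, U began 67.8% of members of 22 nt (61.7 to 73.5%), 55.2% of those of 26 nt (53.7 to 56.6%) and 83.2% of those of 30 nt (79.5 to 86.5%). The minimum at the most common lengths was seen in both arms, with 53.9% at 26 nt and 84.9% at 30 nt in the minus arm and 57.5% and 80.2% in the plus arm. The other rich windows had 65.4%, 55.8% and 79.1% at 22, 26 and 30 nt. In the rest of the list the share was not lowest at 26 nt, with 62.6%, 65.9% and 76.0% at the same lengths. It had a shallower minimum of 60.6% at 24 nt.

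Many members were 3′ variants of the same 5′ end. The 18545 members with a strand began at 8433 positions, which is 2.20 different 3′ ends per 5′ end, against 1.65 in the rest of the list and a median of 2.13 in the other rich windows. A single 3′ end was listed for 4103 of the 5′ ends (48.7%). At the other end of the range, 848 (10.1%) had 5 or more and together accounted for 27.9% of the sequences. U began 41.0% of 5′ ends with 1 listed 3′ end (39.5 to 42.5%), 55.8% of those with 2 to 4 and 77.5% of those with 5 or more (74.5 to 80.2%). Counted against the letters available, 43.9% of the covered U positions of the minus arm were used as a 5′ end, with 19.1% of A, 16.8% of C and 14.6% of G positions. In the plus arm the shares were 33.7% of U, 12.2% of A, 10.1% of C and 8.32% of G. U was the most used base in both, although it made up only 27.4% and 26.5% of the covered positions.

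A at position 10, the mark of ping-pong products, was little more frequent than A at the neighbouring positions when the whole region was counted. It was found in 33.6% of members of 24 to 32 nt (32.9 to 34.3%), with 31.7% at position 9 and 33.2% at position 11. In the plus arm the share was 36.0% (34.7 to 37.4%), with 32.2% and 34.8% at the flanking positions. The minus arm had 32.5%, with 31.5% at position 9 and 32.7% at position 11, so position 10 did not exceed both neighbours there.

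The few sequences that ran against their arm had another base composition. Of the 62, 61 were of 24 to 32 nt, from 57 5′ ends, and 38 of these 61 had A at position 10 (62.3%, 49 to 74.4%), against 33.5% (32.8 to 34.2%, n = 17395) of the sequences that ran with the arms. Positions 9 and 11 held A in 19.7% and 29.5% of the 61. The share was 59.6% with each 5′ end counted once (34 of 57), 72.2% on the left (13 of 18) and 58.1% on the right (25 of 43). Without the 12 sequences of their richest 1-kb bin, 59111001 to 59112000, it was 71.4% (35 of 49). Their strand rests on less evidence than that of other members, since 31 of them shared no 12-nt stretch with a neighbour of their own strand. The strand of these 31 was read from overlap with sequences of the other strand. Sequences against the arm without any such overlap have no strand here and are missing from the set. The share was 73.3% (22 of 30) with such a neighbour and 51.6% (16 of 31) without. U began 52.5% of the 61 (39.3 to 65.4%), and position 11 held G in 52.5%. This set was singled out after its values were seen. In 85 other rich windows with more than 95% of sequences on 1 strand, the minor strand had A at position 10 in 55.2% of 1486 sequences (52.7 to 57.8%), with 28.9% and 29.1% at positions 9 and 11, and the major strand in 32.1%. Frequent A at position 10 on the minor strand was thus also seen outside the chromosome 15 region.

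**Figure D4:**
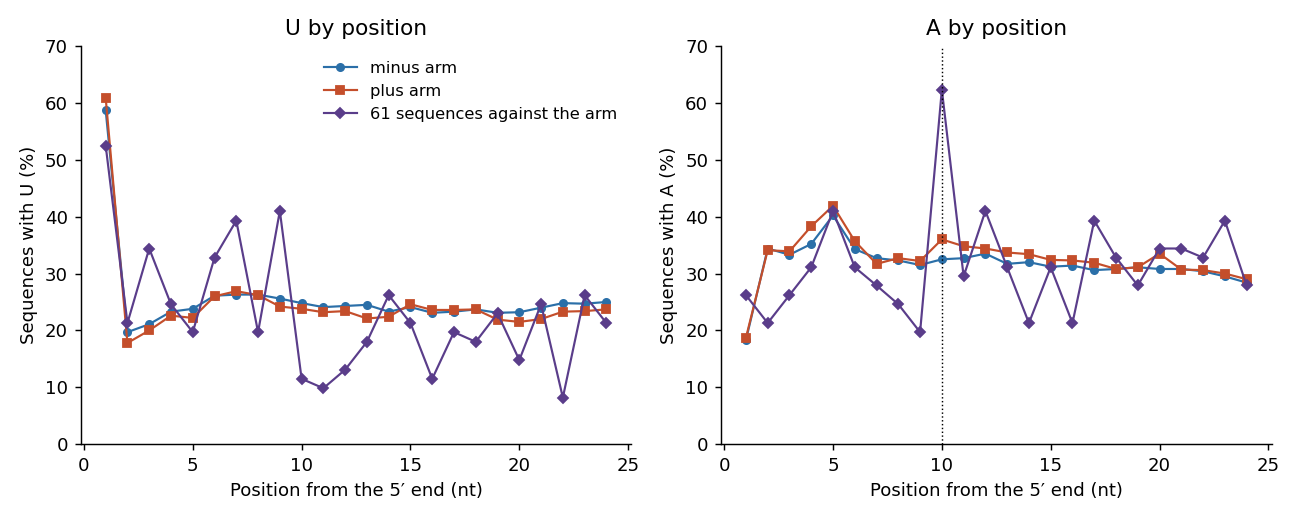
Share of sequences of 24 to 32 nt with U (left) or A (right) at each position from the 5′ end, for the sequences of both arms and for the 61 that ran against their arm. The latter rise to 62.3% A at position 10, marked by the dotted line, where the arms have 32.5 and 36.0%.

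Part of these sequences stood opposite an arm sequence with the 10-nt overlap of the ping-pong cycle. Of the 61, 19 (31.1%, 19.9 to 44.3%), from 17 5′ ends, overlapped the 5′ end of an arm sequence by 10 nt, against 9.26 ± 3.12 (mean and SD) at the other 19 overlaps from 1 to 20 nt, where the highest was 14 at 5 nt. Of these 19, 17 had A at position 10, and their partners started with U. Those are the same letters, since position 10 of one lies opposite base 1 of the other. Among the 42 without such a partner, 21 had A at position 10 (50%, 34.2 to 65.8%). Among sequences with a neighbour on their own strand, the 3 pairs of ends with most sequence pairs are shown, followed by a pair within exon 1 of Gm36617 that was chosen after its values were seen, with the 10 shared bases in capitals.
pair 1 plus, against the arm, chr15:59103016-59103044: ACCAGTTGTAgacgccaaaaagaacatca
pair 1 minus, chr15:59102997-59103025: TACAACTGGTaattttttttaagcctctt
pair 2 minus, against the arm, chr15:59107323-59107349: ATTTCTTGTAgagcagagggaataacg
pair 2 plus, chr15:59107340-59107366: TACAAGAAATagtgcagaacacggctg
pair 3 plus, against the arm, chr15:59091356-59091384: CAAGACTGCAttgctgccaaggtagggtt
pair 3 minus, chr15:59091340-59091365: TGCAGTCTTGtgagtgaatcaccttg
exon 1 minus, against the arm, chr15:59106958-59106985: ACATCTTTCAtgctgtggggcctggcat
exon 1 plus, chr15:59106976-59107005: TGAAAGATGTcaacctgagctgaagccact
In each of the 4, the arm sequence starts with U and the opposite one has A at position 10. Pair 1 comprised 2 plus and 5 minus sequences, pair 2 had 4 plus and 2 minus, and pair 3 had 1 of each, as did 3 further pairs at higher coordinates.

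Counted over the whole region and only among sequences with a neighbour on their own strand, 22 sequence pairs overlapped by 10 nt, against 5.58 ± 3.53 (mean and SD) at the other 19 overlaps, where the highest was 12. The ratio was 3.94 (2.47 to 5.97). With each pair of 5′ ends counted once there were 6 against 2.74, a ratio of 2.19 whose interval, 0.805 to 4.77, includes 1. Pairs 1 and 2 supplied 10 and 8 of the 22 sequence pairs. With this rule 21 of 17417 sequences (0.121%, 0.0747 to 0.184%) had a 10-nt partner. The rule on neighbours removed most pairs: without it, a setting chosen after seeing the data, there were 55 sequence pairs against 17.3 ± 5.62 (mean and SD), a ratio of 3.19 (2.40 to 4.15), and 17 pairs of ends against 8.68, a ratio of 1.96 (1.14 to 3.13). A partner was then found for 65 of 17456 sequences (0.372%, 0.287 to 0.474%). The other regions set beside it had more pairs: 906 on chromosome 17 from 27.44 to 27.5 Mb (ratio 3.48), 61 on chromosome 7 from 77.04 to 77.06 Mb (2.57) and 89 on chromosome 6 from 127.74 to 127.76 Mb (3.38), all with the rule on neighbours. Those regions differ in size, with 40979, 7335 and 10021 members against 18750. At the other 19 overlaps they also had more pairs, with means of 261, 23.7 and 26.3 against 5.58. The higher numbers at 10 nt were therefore not particular to that overlap. With ends counted once the ratios of those regions were 2.13 (1.82 to 2.49), 1.95 (1.01 to 3.40) and 2.09 (1.24 to 3.30), lower than with sequences as in the chromosome 15 region.

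**Figure D5:**
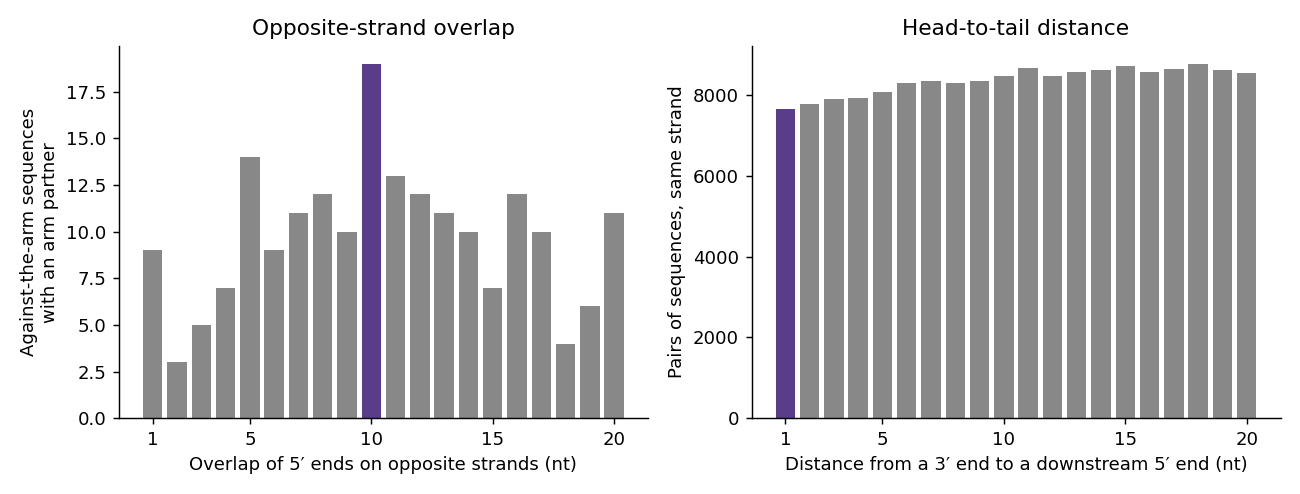
Left, number of the 61 sequences against the arm that had an arm partner at each 5′ overlap from 1 to 20 nt; right, pairs of same-strand sequences at each distance from a 3′ end to a downstream 5′ end. The bar at 10 nt (19) is the highest on the left. On the right, the bar at distance 1 (7654) is the lowest and begins a rise with distance.

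In head-to-tail processing, the 3′ end of one piRNA and the 5′ end of the next are made by the same cut. Where that 3′ end is kept, U lies directly after 3′ ends and many pairs stand at a distance of 1 nt. Neither was seen among the distinct sequences of the region. Each 5′ end had 2.20 different 3′ ends on average, so listed 3′ ends need not be the first cut. Whether head-to-tail processing took place was therefore not tested. The base after the 3′ end was U in 26.3% of 16921 members of 24 to 32 nt (25.6 to 27%), and U made up 27% of the covered positions. The minus arm had 26.6% against 27.4% and the plus arm 25.7% against 26.5%. At a distance of 1 nt there were 7654 pairs, fewer than the 8398 ± 294 (mean and SD) at the other 19 distances, a ratio of 0.911 (0.891 to 0.932). The number of pairs rose with distance, from 7779 at 2 nt to 8076 at 5 nt and 8772 at 18 nt. The low value at 1 nt was thus the start of a slope, which the SD includes, and not a separate dip. On chromosomes 17, 7 and 6 the ratios in the regions named above were 0.957, 0.870 and 0.989. The list holds no read numbers, so a pattern carried by abundant sequences could be missed.

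Stretches that members share with listed sequences elsewhere were counted. A stretch of 20 nt also found in a listed sequence elsewhere was present in 139 members (0.741%, 0.624 to 0.875%), none of them among the 139 that matched a transcript. The share was 0.320% left of the division point and 1.80% right of it. The 109 listed sequences that shared these stretches lay in 78 windows of 20 kb on 19 chromosomes. The highest numbers were 7 from 137380001 on chromosome 5 and 7 from 19980001 on chromosome 8. Then came 6 from 127760001 on chromosome 6, directly beyond the chromosome 6 region named above, and 5 from 88620001 on chromosome 15. The next richest window held 3. The same share over the whole list was not counted, so 0.741% cannot be called low or high. Each sequence is listed at 1 place, and how sequences with several positions were placed is not known. Whether the region has copies elsewhere was therefore not tested.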

How the data were processed

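The authors deposited 1 list for the series, which holds 2219118 distinct sequences of 18 to 36 nt with a chromosome, a start and an end. The build is NCBI mouse build 37 per the file headers and mm9, which is the same, in the submitters' processing notes. The list has no read number, strand or library, so the depth is unknown and no group was compared. The sources used here give no aligner and do not say how sequences with several positions were placed. The region, the measures and the regions set beside it were chosen with earlier results of these data known.

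A strand was inferred for each sequence whose letters matched those of an overlapping listed sequence over at least 12 nt in 1 orientation (1757469 sequences, 79.2%). Unless stated otherwise, base shares cover 24 to 32 nt. The division point is the position that leaves the fewest sequences against the strand of their side. Transcript matches needed a seed of 18 nt and then the whole length. Named members were, per strand, the 5 ends with most 3′ ends (ties to the lower coordinate), the 3 pairs at 10 nt with most sequence pairs, the 5 richest 1-kb bins and genes with 5 or more members. One of the named ends is not reported here. Intervals are exact Clopper-Pearson 95% intervals for shares and exact Poisson intervals for ratios of pairs. They cover counting error only. The scripts were tested on simulated data and used Python 3.11.15 with numpy 2.4.6, pandas 2.3.3, scipy 1.17.1 and matplotlib 3.10.9. Alternatives changed the weight of a sequence, the lengths, the limits and the stretch lengths.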

Additional observations from a re-analysis of the deposited data

How the results depend on the processing

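Of 26 alternative settings, 3 of them chosen after seeing the data, 16 left the value within its interval or, for length, within 1 SD, and 10 moved it. A mean length could hardly leave 1 SD of single sequences, so that rule is weak. With 24 to 32 nt only the mean was 26.6 nt, outside the interval of 26.3 to 26.4 nt. With each 5′ end counted once, the plus-strand share was 30.0%, the share of U at position 1 was 51.0% and the 10-nt overlap ratio was 2.19, or 1.96 when sequences without a neighbour on their own strand were also kept, which alone gave 3.19. With starts from 59.08 to 59.12 Mb only, the plus share was 22.9% and the U share 58.7%. In the window from 59.1 to 59.12 Mb, a setting chosen after seeing the data, the plus share was 48.1%. Among members not starting with U, A at position 10 was 34.6%. The share of members with a stretch found elsewhere was 2.45% at 18 nt and 0.0640% at 24 nt. No paired analysis was possible because each group has 1 library and the list does not name it. Depth cannot be read from the list, so that rare and abundant small RNAs weigh the same and a missing sequence sets no limit on its level.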
